A study of Mus musculus with 90 samples.

Results

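Tcf7l2 (ENSMUSG00000024985), Lef1 (ENSMUSG00000027985), Prkcd (ENSMUSG00000021948), Rora (ENSMUSG00000032238) and Ramp3 (ENSMUSG00000041046) are genes known for high expression in the thalamus, and their transcript levels were followed through dissections of 3 other regions of the mouse brain. The 5 genes, of 37991 in the count table, were chosen on measured values of these libraries: Prkcd, Tcf7l2 and Rora set single libraries of hypothalamus and frontal cortex apart. What those libraries show for the 5 genes is therefore given as a description. Comparisons of conditions or times that include them do carry p-values, which are not independent of that choice. No thalamus was dissected, so that enrichment there is background knowledge about the genes and was not measured.

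The animals were resident male C57BL/6J mice without a transgene. They had been housed with other males for 2 weeks, alone for 1 week and with a C57BL/6J female for 1 week, and the female was taken out 3 h before the test. For 5 min each resident met a wire cage (mesh of about 1 cm) that held either an unfamiliar BALB/cJ male (intruder) or a paper cup (control), and amygdala, frontal cortex and hypothalamus were taken 30, 60 or 120 min later. The 90 libraries, from 32 animals, form 18 groups of 5, apart from the 30 min hypothalamic controls (3 libraries) and both 120 min cortical groups (6 libraries each). In the headers of the count table every 30 min library carries the tag ISO and every 60 and 120 min library the tag CERV; what the tags stand for is not given in the sources used here. The labels give each library 1 animal, while the design text speaks of pooled RNA. A library is named here by its region, time, condition and replicate number. Libraries held 38.6 to 58.86 M reads assigned to genes, and every one of the 5 genes passed the filter on low counts in all 3 regions (75 or more reads in each library).

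Marker genes set the 3 dissections apart in part. Genes known from the cortex summed to 1720 to 2560 CPM (read counts scaled to a common library total) in frontal cortex and at most 1460 elsewhere, and genes known from the hypothalamus to 685 to 1860 CPM in hypothalamus and at most 84.3 elsewhere. The list for the central and basolateral amygdala summed to 103 to 170 CPM in amygdala and to 242 to 375 CPM in hypothalamus, so it did not single out the amygdala. Striatal genes summed to between 204 and 2150 CPM in the amygdala libraries.

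Tcf7l2 and Lef1 encode high-mobility-group transcription factors that pair with beta-catenin at the end of the canonical Wnt pathway, and Tcf7l2 is a known selector of the thalamic neuronal identity. It is also made by oligodendrocytes as they mature, and Lef1 by endothelial cells of brain vessels. Prkcd encodes protein kinase C delta, a kinase switched on by diacylglycerol and a marker both of thalamic relay neurons and of a neuron class of the central amygdala. Rora encodes a nuclear receptor that binds DNA as a monomer, and Ramp3 encodes a membrane protein that steers calcitonin-family receptors towards adrenomedullin or amylin. In bulk tissue, fewer cells of a type and less RNA per cell cannot be told apart.

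Promoters are shown because Prkcd and Ramp3 were highest in the same libraries, and because the Tcf7l2 and Lef1 proteins share a DNA motif. RefSeq gave 10 windows of 300 bases, 250 before and 50 after a transcript start, for all 5 genes on GRCm38.p6. The TCF/LEF core was searched as CTTTGA on both strands, so that it reads TCAAAG in a window where it lies on the opposite strand. The ROR half-site was searched in the same manner as AGGTCA, with TGACCT for the opposite strand, and the motifs do not overlap each other in these windows. The TCF/LEF core occurred in 2 of the 10 windows and is in capitals in the sequences. Those windows lie at chr14:30626159-30626458 on the minus strand for Prkcd and at chr3:131156044-131156343 on the plus strand for Lef1, where a later start of that gene is annotated. The Ramp3 window, chr11:6658283-6658582 on the plus strand, held neither motif and is given for comparison.
Prkcd: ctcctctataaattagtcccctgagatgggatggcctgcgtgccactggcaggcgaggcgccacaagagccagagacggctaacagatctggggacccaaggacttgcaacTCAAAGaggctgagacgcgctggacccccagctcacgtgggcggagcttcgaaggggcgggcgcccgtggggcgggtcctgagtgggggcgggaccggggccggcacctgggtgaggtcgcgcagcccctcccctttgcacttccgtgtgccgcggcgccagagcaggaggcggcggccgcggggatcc
Ramp3: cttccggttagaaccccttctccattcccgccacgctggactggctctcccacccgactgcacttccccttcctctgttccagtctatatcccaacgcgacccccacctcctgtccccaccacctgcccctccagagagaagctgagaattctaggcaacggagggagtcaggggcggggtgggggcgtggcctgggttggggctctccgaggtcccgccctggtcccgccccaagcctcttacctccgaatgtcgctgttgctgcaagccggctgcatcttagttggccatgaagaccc
Lef1: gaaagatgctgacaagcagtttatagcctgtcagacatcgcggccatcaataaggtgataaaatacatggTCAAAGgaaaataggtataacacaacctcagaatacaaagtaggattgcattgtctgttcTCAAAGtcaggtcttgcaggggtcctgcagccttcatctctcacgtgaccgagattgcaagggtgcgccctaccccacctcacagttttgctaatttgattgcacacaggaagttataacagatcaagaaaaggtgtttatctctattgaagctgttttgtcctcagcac

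The Prkcd window has 1 core at base -139 from the start, and the Lef1 window has 2, at -180 and -120. The ROR half-site was in none of the 10 windows. Over all 32851 RefSeq promoter windows of that length, 16.0% held the TCF/LEF core and 16.3% the ROR half-site, so letters like these are common and a match is a description of the window only.

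By medians the order of the 3 regions differed between the genes, while by means Tcf7l2 and Prkcd shared one order and Rora and Ramp3 another. Tcf7l2 was highest in hypothalamus (32.3 CPM ± 26.3, SD, n = 28), lower in amygdala (13.4 ± 6.19, n = 30) and lowest in frontal cortex (5.59 ± 3.56, n = 32). The hypothalamic libraries ran from 13.3 over a median of 23.9 to 134 CPM, the amygdala libraries from 5.25 over 12.4 to 28 CPM, and the cortical libraries from 3.69 over 4.90 to 24.6 CPM. Ranges overlapped between hypothalamus and amygdala, and a single cortical library lay above 6.92 CPM.

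Ramp3 had another order, with its highest median in frontal cortex. There it ran from 6.79 over a median of 10.8 to 16.3 CPM (11.2 ± 2.57). In amygdala it ran from 1.76 over 2.57 to 3.66 CPM (2.64 ± 0.527). In hypothalamus it ran from 1.79 over 2.78 to 24.3 CPM (4.63 ± 5.37), where the median was close to that of amygdala and the mean was drawn up by a few libraries.

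Rora, the nuclear receptor, also had its highest median in frontal cortex (44.3 over 86.9 to 114 CPM, 86.5 ± 17.5). Amygdala (39.0 over 56.6 to 70.7 CPM, 56.1 ± 8.36) and hypothalamus (40.7 over 52.8 to 120 CPM, 58.6 ± 18.8) had like medians. Prkcd had its highest median in amygdala, at 19.7 CPM (13 to 29.4, 19.1 ± 3.99), against 16.6 in hypothalamus (12.8 to 127, 24.9 ± 26.2) and 12.6 in frontal cortex (10.5 to 42.6, 13.3 ± 5.43). Lef1 had its highest median in hypothalamus. It ran from 1.65 over 3.06 to 4.82 CPM in amygdala (3.14 ± 0.886), from 3.48 over 4.88 to 6.67 in frontal cortex (4.86 ± 0.754) and from 3.22 over 5.9 to 12.9 in hypothalamus (6.33 ± 2.29). Levels of different genes are not compared, since counts were not divided by transcript length.

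**Figure D1:**
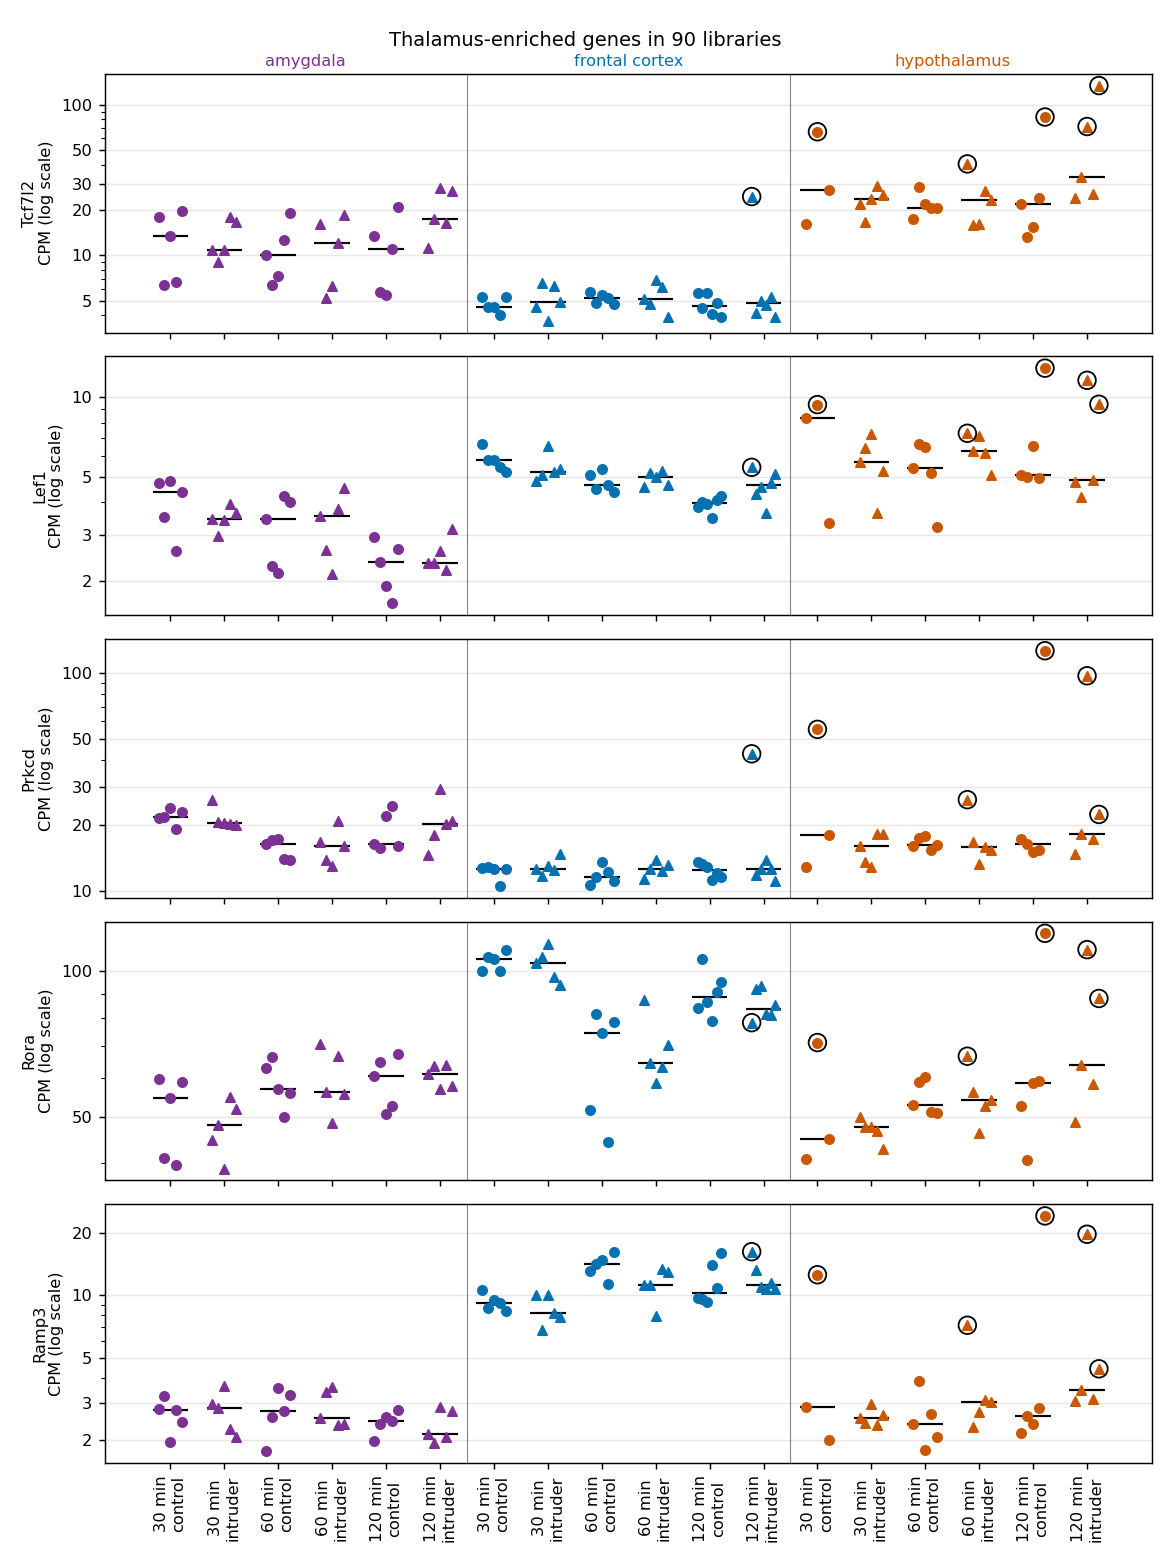
CPM (log axis) of each of the 5 genes in all 90 libraries, by region, time and condition; circles are controls, triangles intruder libraries, short bars group medians, and open rings mark the 6 libraries at 2 or more times a regional median in hypothalamus or frontal cortex. The ringed libraries reach 134 CPM for Tcf7l2, 127 CPM for Prkcd and 24.3 CPM for Ramp3.

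The libraries that stood apart were 5 of hypothalamus and 1 of frontal cortex, taken here as those of these 2 regions in which at least 1 of the genes reached 2 times its regional median. In amygdala 2 libraries also did so, 120 min intruder 3 and 6, both through Tcf7l2 alone (2.26 and 2.16 times, at 28 and 26.7 CPM, above the next amygdala library at 21.0 CPM). They stay in every comparison, since the rule that chose the genes names hypothalamus and cortex. This threshold, like the genes, was chosen after values of these libraries had been seen. In hypothalamus at 120 min the control libraries (replicates 1, 2, 3, 4 and 6) held 17.3, 16.4, 15.1, 15.4 and 127 CPM of Prkcd. The intruder libraries with the same numbers held 14.8, 18.2, 97.4, 17.2 and 22.4 CPM. One library in each condition was therefore several times above the other 4, and the ranges of the conditions overlapped.

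Ramp3 singled out the same pair of libraries. Its values were 2.16, 2.59, 2.38, 2.84 and 24.3 CPM in those controls, and 3.08, 3.49, 19.8, 3.15 and 4.41 CPM in the intruder libraries. Control 6 and intruder 3 were thus at 8.73 and 7.11 times the regional median for Ramp3, and at 7.68 and 5.88 times for Prkcd.

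Rora and Lef1 had lower ratios in that pair. Rora was at 52.7, 40.7, 58.6, 59.2 and 120 CPM in the controls and at 48.8, 63.9, 111, 58.5 and 87.9 CPM in the intruder libraries. Lef1 was at 5.07, 4.98, 6.53, 4.93 and 12.9 CPM in the controls and at 4.77, 4.19, 11.6, 4.87 and 9.41 CPM in the intruder libraries. For both genes control 6 and intruder 3 were again the highest of their groups, at about 2 times the regional median (2.27 and 2.09 for Rora, 2.18 and 1.96 for Lef1).

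Tcf7l2 did not follow the same order. The controls held 22, 13.3, 15.5, 24.1 and 82.9 CPM and the intruder libraries 24.1, 33, 71.7, 25.4 and 134 CPM. The highest Tcf7l2 value of the series was thus in intruder 6, at 5.61 times the regional median, where Prkcd was at 1.35 and Ramp3 at 1.59 times theirs. That library also held 41.2 CPM of Lhx9, a homeobox gene of the developing thalamus, against 2.03 to 8.79 CPM in the hypothalamus libraries that did not stand apart.

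At 30 min the 3 hypothalamic controls (replicates 2, 3 and 5) held 16.1, 66.2 and 27.2 CPM of Tcf7l2, 12.8, 55.2 and 18 CPM of Prkcd, and 2.88, 12.6 and 2.0 CPM of Ramp3. Control 3 was the highest for these 3 genes and also for Rora (40.8, 71.2 and 44.9 CPM). Lef1, at 8.31, 9.38 and 3.32 CPM, was nearly as high in control 2 as in control 3. At 60 min intruder 1 held 7.17 CPM of Ramp3, against 2.3 to 3.11 CPM in the other 4 of its group, and 26.2 CPM of Prkcd against 13.3 to 16.7 CPM.

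The cortical library was intruder 1 at 120 min, and there the pattern was narrower than in hypothalamic control 6 and intruder 3 at 120 min. The 6 intruder libraries held 24.6, 4.17, 4.97, 4.73, 5.28 and 3.91 CPM of Tcf7l2 and 42.6, 11.8, 12.6, 13.8, 12.6 and 11.1 CPM of Prkcd. Rora in the same libraries was 78.3, 91.8, 93.4, 81.6, 81.1 and 85.4 CPM, with replicate 1 the lowest. Ramp3 (16.3 CPM in replicate 1, 10.7 to 13.3 in the other 5) and Lef1 (5.42 against 3.62 to 5.10 CPM) were highest in replicate 1 by smaller amounts. So 2 of the 5 genes were past 2 times the regional median in cortex, against all 5 in hypothalamic control 6 and 4 in hypothalamic intruder 3 at 120 min. Hypothalamic control 3 at 30 min had 3, and 60 min intruder 1 and 120 min intruder 6 had 1 each.

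Other genes known from the thalamus were taken from a list of 17, of which 16 had a regional median of at least 0.1 CPM in hypothalamus and 15 in frontal cortex. At 120 min, 9 of 16 were at 2 or more times their median in hypothalamic control 6 and 10 of 16 in intruder 3, where the median ratios of the list were 2.34 and 2.36. In the same libraries 0.795% and 0.648% of all genes were at that ratio. Tnnt1, a troponin, was at 11.1 and 7.32 CPM against 0.495 to 1.08 CPM in the libraries not apart, and Synpo2, an actin-binding protein, at 60.7 and 53.1 CPM against 9.44 to 14.5 CPM. Grid2ip, a scaffold protein of the delta glutamate receptor, was at 15.8 and 14.3 CPM against 0.881 to 3.19 CPM.

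Fewer genes of the list were at that ratio in the other hypothalamic libraries. There were 5 of 16 in control 3 at 30 min, 3 of 16 in intruder 1 at 60 min and 2 of 16 in intruder 6 at 120 min, beside 0.626%, 0.626% and 1.02% of all genes. Genes known from the hypothalamus had median ratios of 0.75, 0.97 and 0.66 there, and of 0.63 and 0.64 in control 6 and intruder 3 at 120 min. Avp, the vasopressin gene, was at 143, 141 and 150 CPM in control 6, intruder 3 and intruder 6 at 120 min, below its range of 158 to 532 CPM in the hypothalamus libraries not apart. The part of hypothalamic cell content in the levels of the 5 genes was not tested.

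In the cortical library 7 of 15 thalamic genes were at 2 or more times their median, beside 2.33% of all genes. Gbx2, another such homeobox gene, was at 4.79 CPM against 0.0201 to 0.915 CPM in the other cortical libraries, and Slc17a6, the vesicular glutamate transporter of subcortical neurons, at 63.9 against 14.3 to 36.5 CPM. Genes of further lists were also high in it. Of the habenula list, 3 of 7 were at that ratio, with Gpr151 at 2.9 CPM against 0.248 to 0.829 CPM. Of the hypothalamus list, Oxt (15.4 against 0 to 0.688 CPM) and Avp (8.25 against 0.0647 to 1.25 CPM) were. Of the choroid plexus list, 4 of 5 were, with a median ratio of 5.16. Ttr, the transthyretin gene that dominates the choroid plexus, was at 211 CPM there and at 0.195 to 298 CPM in the other cortical libraries. The list for the central and basolateral amygdala summed to 78.8 CPM in it against 33.8 to 60.5 CPM in the other cortical libraries, with 2 of 6 genes (Dlk1 and Nts) at 2 or more times their median. The cortex list had its lowest sum there, 1720 against 1870 to 2560 CPM. The part of these tissues in the cortical values was not tested.

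Families related to the 5 genes were not at such ratios, with few exceptions. None of the 16 Wnt pathway and TCF/LEF genes of a list was at 2 or more times its median in any of the 6, nor was Rorb, a relative of Rora. Among the protein kinases C, Prkch was in 4 of the 6, at 18.4 and 14.6 CPM in hypothalamic control 6 and intruder 3 at 120 min against 3.93 to 6.67 CPM in the libraries not apart. Of the RAMP partners, 0 of 7 were at that ratio in the hypothalamic libraries and 1 of 5, Calca, in the cortical one.

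**Figure D2:**
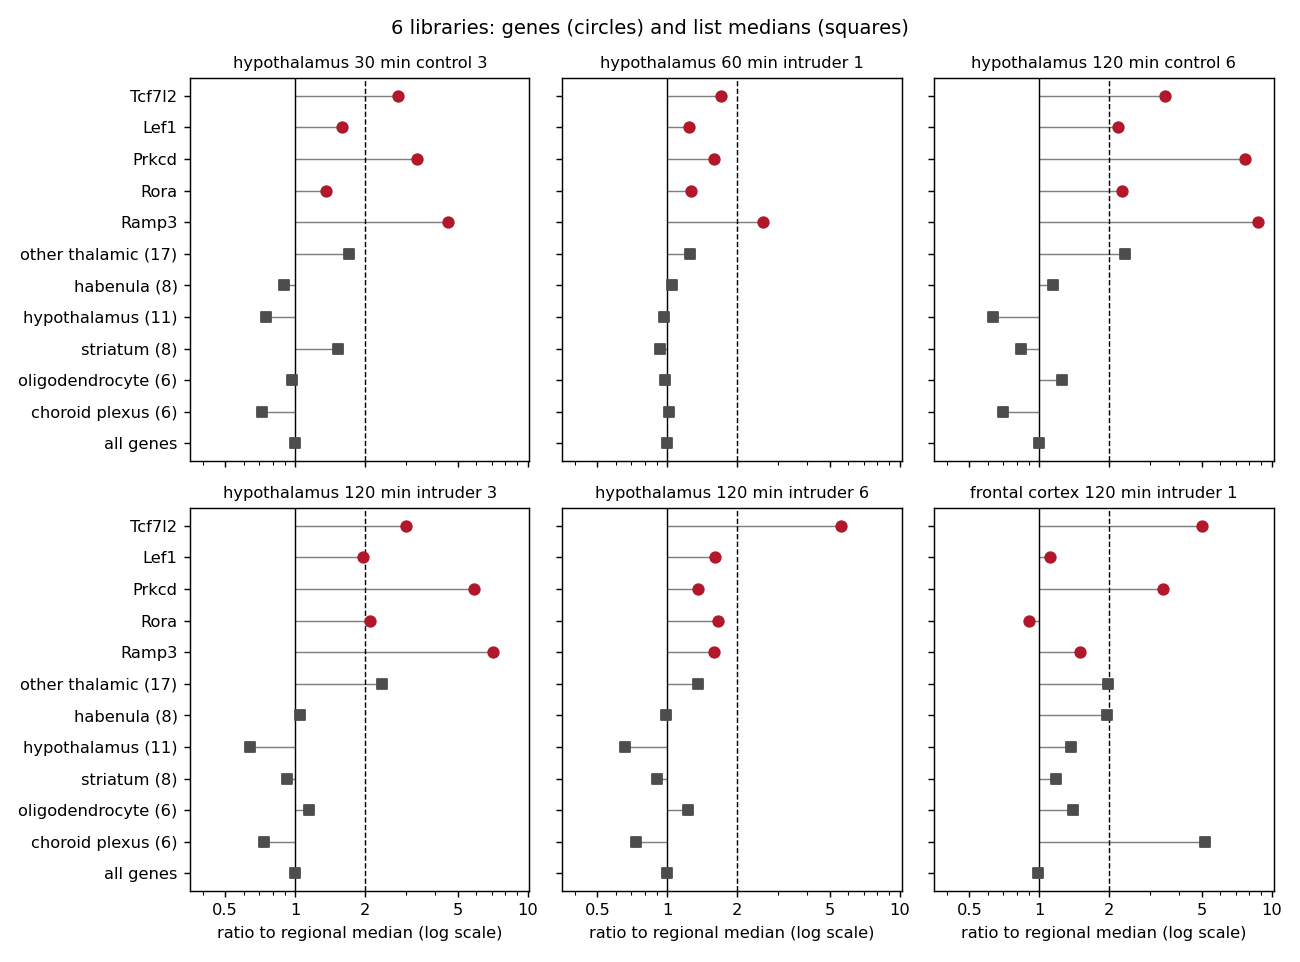
Ratio to the regional median (log axis) of the 5 genes (circles) and of the median of marker lists (squares, number of genes listed in brackets) in the 6 libraries that stood apart; the dashed line is 2 times the median. Ramp3 and Prkcd reach 8.73 and 7.68 in hypothalamus 120 min control 6, where the hypothalamus list is at 0.63, and choroid plexus genes are at 5.16 in the cortical library.

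Without those 6 libraries, which were left out for their high values, the regional ranges were narrower by construction. Prkcd in hypothalamus then ran from 12.8 to 18.3 CPM (16.0 ± 1.72, n = 23) and Ramp3 from 1.79 to 3.83 CPM (2.67 ± 0.490). Tcf7l2 still had a wide range there, from 13.3 to 33 CPM (22.1 ± 5.12), as did Rora (40.7 to 63.9 CPM, 51.6 ± 6.49) and Lef1 (3.22 to 8.31 CPM, 5.51 ± 1.28). In frontal cortex Tcf7l2 ran from 3.69 to 6.92 CPM (4.98 ± 0.817, n = 31) and Prkcd from 10.5 to 14.7 CPM (12.4 ± 0.983).

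Regions were compared over the means of the 6 groups of each, with all libraries and without the 6. The 6 were left out for high values of these same genes, mostly in hypothalamus and never in amygdala, which lowers the hypothalamic means by construction, so values without them are descriptions and carry no p. Because the genes were chosen on hypothalamic and cortical libraries that enter these fits, their differences between any 2 of the 3 regions are likewise given with SE and no p, and nothing is read from how many passed. Regions come from the same animals. With the animal as a block, differences between frontal cortex and the other 2 regions kept their sign. So did those of Tcf7l2, Lef1 and Ramp3 between hypothalamus and amygdala. Between hypothalamus and frontal cortex 87.4% of the 18337 genes tested passed an adjusted p of 0.05. Tcf7l2 was higher in hypothalamus by 2.49 on the log2 scale (SE 0.181), and by 2.15 without the 6 libraries. Prkcd (0.84, SE 0.151) and Lef1 (0.38, SE 0.0907) were higher by less, and the differences were 0.37 and 0.18 without those libraries. Ramp3 (-1.35, SE 0.165) and Rora (-0.56, SE 0.0677) were lower in hypothalamus. Without the 6 libraries Ramp3 was lower by more, at -2.03.

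Between amygdala and frontal cortex 76.7% of genes passed. Here 1 library that stood apart, of cortex, enters. Tcf7l2 (1.26, SE 0.177) and Prkcd (0.53, SE 0.148) were higher in amygdala. Lef1 (-0.65, SE 0.0916), Rora (-0.61, SE 0.0656) and Ramp3 (-2.07, SE 0.165) were lower. Without the 6 libraries these differences were 1.39, 0.61, -0.65, -0.62 and -2.06, in the same order.

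Between hypothalamus and amygdala 80.1% of genes passed. Tcf7l2 (1.23, SE 0.174) and Lef1 (1.04, SE 0.0939) were higher in hypothalamus, and stayed so at 0.76 and 0.83 without the 6 libraries. Ramp3 had a difference of 0.71 (SE 0.171), which was 0.03 without them. Prkcd was at 0.31 (SE 0.152) and Rora at 0.04 (SE 0.0681). Without the 6 libraries their values were -0.24 and -0.13.

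**Figure D3:**
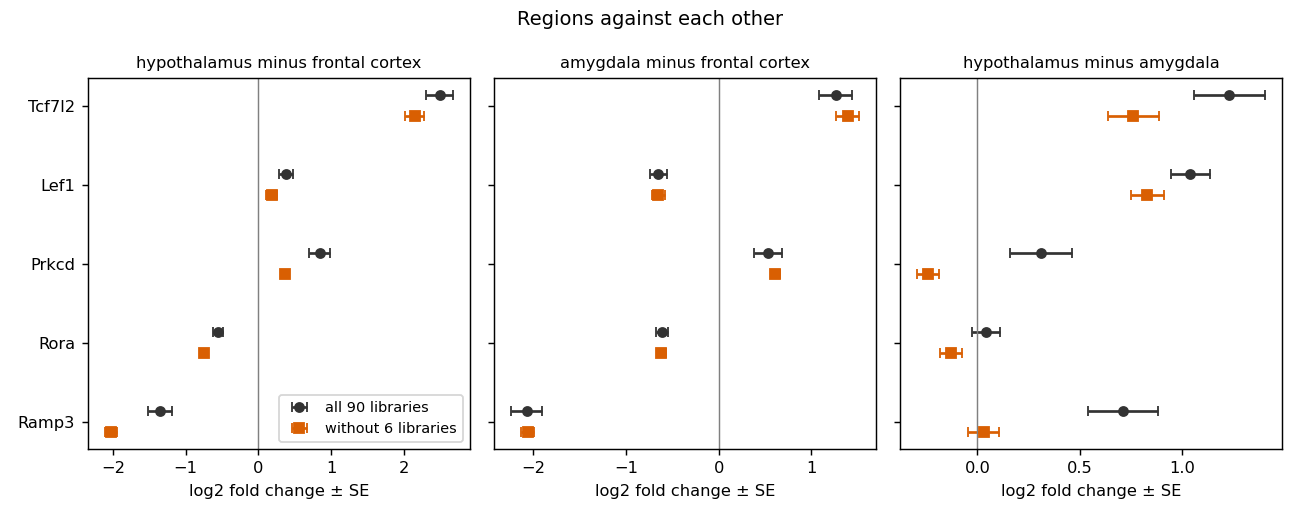
Log2 fold changes with SE of the 5 genes between each pair of regions, from all 90 libraries and without the 6 libraries that stood apart. Prkcd and Rora change sign between hypothalamus and amygdala, and Ramp3 moves from 0.71 to 0.03, when libraries with high values of these genes are left out.

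Related genes are read against all 18337 genes tested, of which 8279 were called higher and 7743 lower in hypothalamus than in frontal cortex, 7571 higher and 6494 lower in amygdala than in frontal cortex, and 7260 higher and 7437 lower in hypothalamus than in amygdala. Of 16 other thalamic genes tested, 12 were higher and 3 lower in hypothalamus than in frontal cortex, with a median log2 difference of 1.47, beside 0.02 over all genes. Slc17a6 (3.17, SE 0.0726) and Lhx9 (4.09, SE 0.257) were among those higher, and Ptpn3, a protein tyrosine phosphatase, was lower (-2.0, SE 0.133). Against amygdala, 11 were higher and 4 lower in hypothalamus (median 0.87), and amygdala against cortex gave 10 and 4 (median 0.42). Wnt pathway and TCF/LEF genes went both ways, with 6 higher and 8 lower of 16 in hypothalamus against cortex (median -0.05). Of the relatives of Lef1 and Tcf7l2, Tcf7l1 was higher like them (0.40, SE 0.0484), while Tcf7 was lower (-1.15, SE 0.129).

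The relatives of Prkcd were mostly lower in hypothalamus than in cortex, with 1 higher and 6 lower of 8 (median -1.24). Prkcb (-2.02, SE 0.0577) and Prkca (-1.53, SE 0.0351), conventional calcium-dependent isoforms, were among them. Rorb, a relative of Rora, was lower (-0.80, SE 0.0365) in hypothalamus. Of the partners of Ramp3, 4 were higher and 3 lower of 7. Calcr, the calcitonin receptor, was higher by 8.49 (SE 0.251), while its modifiers Ramp1 (-0.60, SE 0.0336) and Ramp2 (-0.53, SE 0.0407) were lower in hypothalamus, the direction of Ramp3.

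The intruder was compared with the paper cup within each region and time. None of the 45 tests (5 genes, 9 comparisons) passed an adjusted p of 0.05 with edgeR's quasi-likelihood test. An unadjusted p under 0.05 was seen for 3, and none of 745 values under alternative settings, DESeq2 included, passed. Over all genes the share called was 0% in amygdala at 30 and at 60 min and 0.538% at 120 min, 0% in frontal cortex at each of the 3 times, and 0% in hypothalamus at 30 and at 60 min and 0.192% at 120 min. A count of 0 of 5 is therefore near the background in every comparison. In hypothalamus at each time and in frontal cortex at 120 min, libraries that stood apart enter these tests. The genes were chosen on such libraries, so the p-values of the 5 genes there are descriptions only.

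The widest difference in amygdala was that of Tcf7l2 at 120 min. The control libraries (replicates 1, 2, 3, 4 and 6) held 13.5, 5.69, 5.46, 11.1 and 21.0 CPM and the intruder libraries 11.2, 17.5, 28, 16.4 and 26.7 CPM. Intruder means were higher (20 ± 7.17 against 11.3 ± 6.41 CPM), but the ranges overlapped, and the log2 difference was 0.81 (SE 0.401, adjusted p = 0.336). Summed striatal genes ran from 224 to 1250 CPM in those controls and from 354 to 1300 CPM in the intruder libraries. Their highest values were in the libraries with most Tcf7l2, control 6 (1250) and intruder 3 and 6 (1300 and 1160). Summed oligodendrocyte genes had medians of 3760 CPM in the controls (2430 to 5150) and 5290 CPM in the intruder libraries (3120 to 6540), and the median striatal sums were 408 and 472 CPM. The part of striatal tissue or myelin in this difference was not tested. The other amygdala differences were within 0.21 of 0 in either direction.

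In frontal cortex at 120 min Tcf7l2 (0.76, SE 0.308, adjusted p = 0.851), Prkcd (0.50, SE 0.210, adjusted p = 0.851) and Lef1 (0.24, SE 0.0859, adjusted p = 0.825) had the 3 unadjusted p-values under 0.05 (0.019, 0.0224 and 0.00939). Leaving out intruder 1 took Tcf7l2 to -0.04 and Prkcd to 0.00, and Lef1 to 0.18. Tcf7l2 and Prkcd thus rested on that library. It is among those on which the genes were chosen, so the p-values of Tcf7l2 and Prkcd lend no support to a difference.

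In hypothalamus the sign of several differences was set by single libraries. At 30 min Ramp3 (-1.17, SE 0.720), Prkcd (-0.86, SE 0.626) and Tcf7l2 (-0.64, SE 0.535) were lower in intruder libraries, with only 3 controls. Without the 6 libraries, which takes control 3 out here, they were at 0.09, 0.04 and 0.11. At 120 min Tcf7l2 was higher after the intruder by 0.87 (SE 0.469, adjusted p = 0.475), and ran from 0.29 to 1.76 over the alternative settings, with 0.55 without the 6 libraries. Prkcd at -0.16 (SE 0.543) ran from -1.07 to 1.08 over the alternative settings, and Ramp3 at 0.00 (SE 0.614) from -0.94 to 1.51.

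No other thalamic gene of the 16 tested was called in any of the 9 comparisons. Their median log2 difference was -0.02, 0.09 and 0.10 in amygdala at 30, 60 and 120 min, 0.08, 0.09 and 0.30 in frontal cortex and -0.33, 0.09 and 0.11 in hypothalamus. The 0.30 includes cortical intruder 1, where the mean log2(CPM + 1) of the thalamic list was 4.39, against 3.2 to 3.45 in the rest of its group. The -0.33 includes hypothalamic control 3, at 5.08 against 4.0 and 4.35 in the other controls of that time. The 5 genes had medians of -0.02, 0.04 and 0.12, of -0.03, 0.05 and 0.24, and of -0.64, 0.17 and 0.02. Whether the intruder difference itself changed with time was tested in each region. None of the 5 genes passed, with 0% of all genes called for amygdala, 0% for cortex and 0.0113% for hypothalamus.

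**Figure D4:**
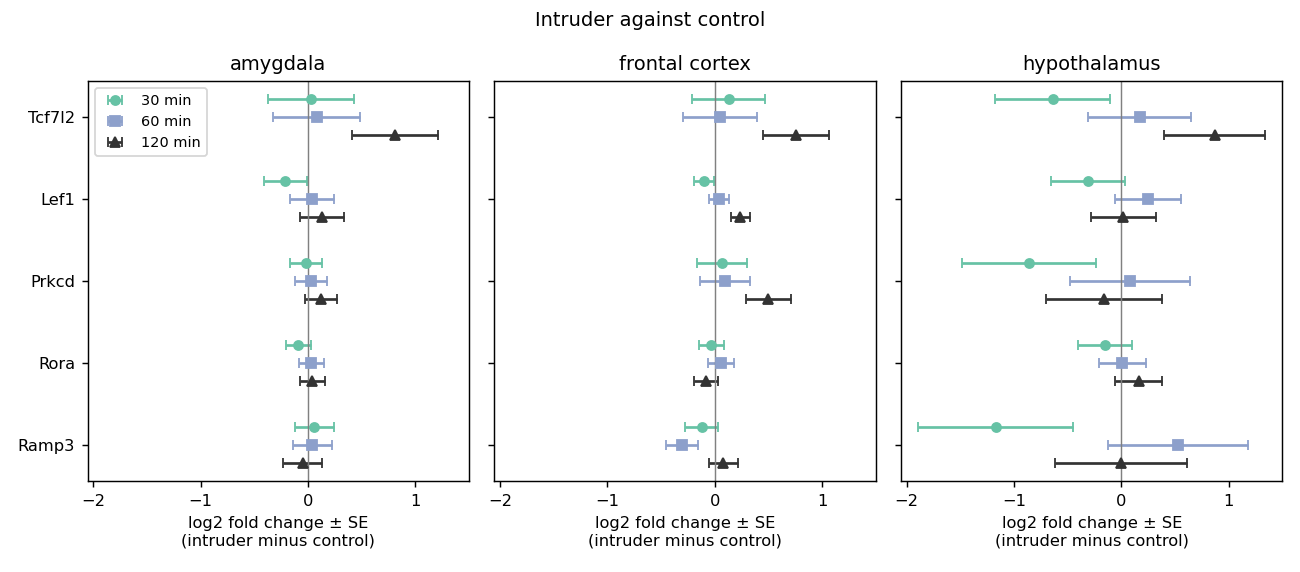
Log2 fold change with SE of intruder against control for the 5 genes at 30, 60 and 120 min in each region. The widest error bars, up to 0.720, are in hypothalamus, where the 5 libraries that stood apart lie, and none of the 45 differences passed an adjusted p of 0.05.

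Levels of 3 of the genes differed between times after the cage in frontal cortex. Among cortical controls Lef1 (adjusted p = 0.000193), Rora (0.000478) and Ramp3 (0.0115) differed between times with edgeR's test on 2 degrees of freedom, in the main setting and in all 21 alternatives for each. Tcf7l2 (0.941) and Prkcd (0.96) did not pass. The share of all genes called was 33.4%, so 3 of 5 is not far above the background. In amygdala (0.232% of genes called) and hypothalamus (0.181%) none of the 5 passed among controls.

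Rora was lowest in cortex at 60 min. Controls held 100, 107, 106, 100 and 111 CPM at 30 min, 51.6, 81.6, 74.4, 44.3 and 78.6 CPM at 60 min, and 83.9, 106, 86.4, 78.8, 90.8 and 94.9 CPM at 120 min. No 60 min control reached the lowest 30 min control. The fall from 30 to 60 min was -0.68 (SE 0.119, adjusted p = 0.000123, 35.4% of genes called) and the rise from 60 to 120 min 0.45 (SE 0.115, adjusted p = 0.0136, 15.9% called). Without 60 min control 5 that rise was 0.33 (adjusted p = 0.0604).

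Intruder libraries followed a like course for Rora. They held 104, 107, 114, 97.2 and 93.7 CPM at 30 min, 87.4, 64.7, 58.7, 63.2 and 70.4 CPM at 60 min, and 78.3 to 93.4 CPM at 120 min. The fall from 30 to 60 min was -0.59 (SE 0.119, adjusted p = 0.000176, 45.5% called). The rise from 60 to 120 min was 0.31 (SE 0.114, adjusted p = 0.0464, 22.9% called), a call that only 4 of 17 alternatives kept.

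Ramp3 went the other way at 60 min. Controls held 10.6, 8.73, 9.48, 9.22 and 8.37 CPM at 30 min and 13.1, 14.2, 14.8, 11.4 and 16.2 CPM at 60 min, with no overlap, a difference of 0.58 (SE 0.150, adjusted p = 0.00339). At 120 min they ran from 9.32 to 16.0 CPM, overlapping both earlier times. In intruder libraries Ramp3 was higher at 60 than at 30 min by 0.40 (SE 0.151, adjusted p = 0.0306) and higher at 120 than at 30 min by 0.52 (SE 0.145, adjusted p = 0.0146, 17.7% called). The first of these was lost without any 1 of 30 min intruder 2, 4 or 5 (adjusted p = 0.0917, 0.0569 and 0.0645) or 60 min intruder 4 or 5 (0.091 and 0.083).

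Lef1 fell with time in the controls, from 5.22 to 6.67 CPM at 30 min over 4.38 to 5.34 CPM at 60 min to 3.48 to 4.21 CPM at 120 min. The 120 min controls all lay below the 60 min ones. The difference between 120 and 30 min was -0.56 (SE 0.0891, adjusted p = 0.000829, 4.42% of genes called). The steps from 30 to 60 min (-0.28, SE 0.0926, adjusted p = 0.0183) and from 60 to 120 min (-0.28, SE 0.0900, adjusted p = 0.0332) were smaller. In intruder libraries the corresponding differences were -0.22, -0.14 and -0.08, and none passed. Without 120 min intruder 1 the first was -0.28 (adjusted p = 0.0303). The 2 control steps were each lost when single libraries were left out: the first without 30 min control 1 (adjusted p = 0.0813) or 60 min control 6 (0.058), and the second without 60 min control 1, 3 or 5 (0.0747, 0.0754 and 0.0696) or 120 min control 2 or 4 (0.0564 and 0.0522).

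Shares of reads moved with time as well. The share of reads outside any annotated feature was 10.99% to 13.19% in the 30 min cortical libraries, 8.63% to 10.29% in the 60 min ones, with no overlap, and 9.46% to 11.3% in the 120 min ones. Reads not aligned uniquely were 10.2% to 10.46% in the 30 min controls and 10.74% to 11.34% in the 60 min controls. Their part in the time differences of Rora, Ramp3 and Lef1 was not tested. Every difference from 30 min is also one between the header tags ISO and CERV, and time and tag cannot be told apart there; the 60 and 120 min libraries share the tag CERV. Within a condition no leading index was used at more than 1 time in the cortex, so index and time cannot be told apart within controls or within intruder libraries. Index was separable only through 60 min controls that shared an index with the 120 min intruder libraries, and with index as a block the Rora rise from 60 to 120 min in intruder libraries was 0.49 (adjusted p = 0.133). Among controls, where 33.4% of all genes differed between times, 6 of 6 oligodendrocyte and 5 of 10 endothelial genes differed between times, as did 3 of 16 other thalamic genes (Grid2ip, Adarb1 and Ptpn3). Of the Wnt and TCF/LEF list 4 of 16 did (Axin2, Apc, Gsk3b and Nkd1), of the kinases C 4 of 8 (among them Prkca, Prkcb and Prkci), and Rorb did.

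Amygdala and hypothalamus were also compared by pairs of times within each condition, comparisons that were added after seeing the data. In amygdala, Rora in intruder libraries was 44.7, 48, 39, 54.9 and 51.9 CPM at 30 min and 61.4, 63.6, 57.1, 64 and 57.8 CPM at 120 min. These groups did not overlap, and Rora was higher at 120 min by 0.35 on the log2 scale (SE 0.118, adjusted p = 0.0434 with edgeR), where 15% of all genes were called and 1 of the 5 genes. The call was lost with 12 of 15 alternatives (adjusted p 0.0258 to 0.552), among them leaving out any 1 of the 10 libraries except 30 min intruder 4. The 30 min libraries carry another tag than those at 120 min, so time and tag cannot be told apart. They also led with another index. Index could be fitted as a block here through indices shared between amygdala groups, and the call was lost with it. None of the 5 was called in the other pairs of amygdala, which were 60 against 30 min (0.133% of genes in controls, 7.41% in intruder libraries), 120 against 60 min (0.0232% and 0.0695%) and, in controls, 120 against 30 min (0.145%). In hypothalamus none was called in any pair, with 0.017% of genes in controls and 0.0792% in intruder libraries for 60 against 30 min, 0.175% and 1.93% for 120 against 30 min, and 0.0396% and 0.441% for 120 against 60 min.

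Amygdala libraries were not used to choose the genes, and there the relations among the 5 were tested over 30 libraries. Levels were log2(CPM + 1) centred on the group, and 15 relations were tested, the 10 pairs of genes and each gene with the mean of the other thalamic genes. Tcf7l2 and Lef1 went together (Pearson r = 0.76, adjusted permutation p = 0.0003, Spearman rho = 0.77, adjusted p = 0.00015), and r was still 0.76 without the 2 libraries farthest from the median of Tcf7l2. Within the libraries sharing a leading index (n = 8, 8, 6 and 8) r was 0.86, 0.79, 0.51 and 0.89. Rora and Ramp3 went in opposite directions (r = -0.57, rho = -0.55, adjusted permutation p = 0.00735 for r), with r = -0.75, -0.48, -0.09 and -0.62 within indices.

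Relations with the other thalamic genes were weaker than that of Tcf7l2 and Lef1. Tcf7l2 had r = 0.50 with their mean (rho = 0.47, adjusted permutation p = 0.019) and Lef1 r = 0.56 (rho = 0.54, adjusted permutation p = 0.00735). Within indices these were 0.24, 0.56, 0.45 and 0.62 for Tcf7l2 and 0.49, 0.83, -0.29 and 0.72 for Lef1, so the latter did not hold in each. Tcf7l2 and Rora (r = 0.44, rho = 0.43, adjusted permutation p = 0.0468 for r and 0.0583 for rho) did not hold within indices either, at 0.86, -0.62, 0.39 and 0.71. The relation of Tcf7l2 with the thalamic mean was 0.44, and with Rora 0.40, without the 2 farthest libraries, neither past the threshold. Without centring on the group, Tcf7l2 and Lef1 had r = 0.45, Lef1 and the thalamic mean 0.21, and Tcf7l2 and Rora 0.33, none past the threshold. Prkcd had no relation past the threshold in the main setting, with r = 0.18 to Tcf7l2.

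Markers of other tissue moved with Tcf7l2 in amygdala more closely than thalamic genes did. As a description over the 30 libraries, its median r was 0.92 with 6 oligodendrocyte genes and 0.92 with 8 striatal genes, against 0.07 with 16 other thalamic genes, 0.55 with endothelial genes, -0.53 with cortical genes and 0.03 over all genes. Rgs9, a striatal regulator of G-protein signalling, had r = 0.95, and Mag and Cnp, myelin genes, 0.94 each. The thalamic list was split, with Gbx2 at 0.97, Tnnt1 at 0.88 and Ptpn3 at -0.92. Lef1 had its highest list median with endothelial genes (0.75), led by Flt1 (0.93) and Pecam1 (0.89), before striatal (0.71) and oligodendrocyte genes (0.68). The part of myelin, striatum or vessels in either level was not tested.

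**Figure D5:**
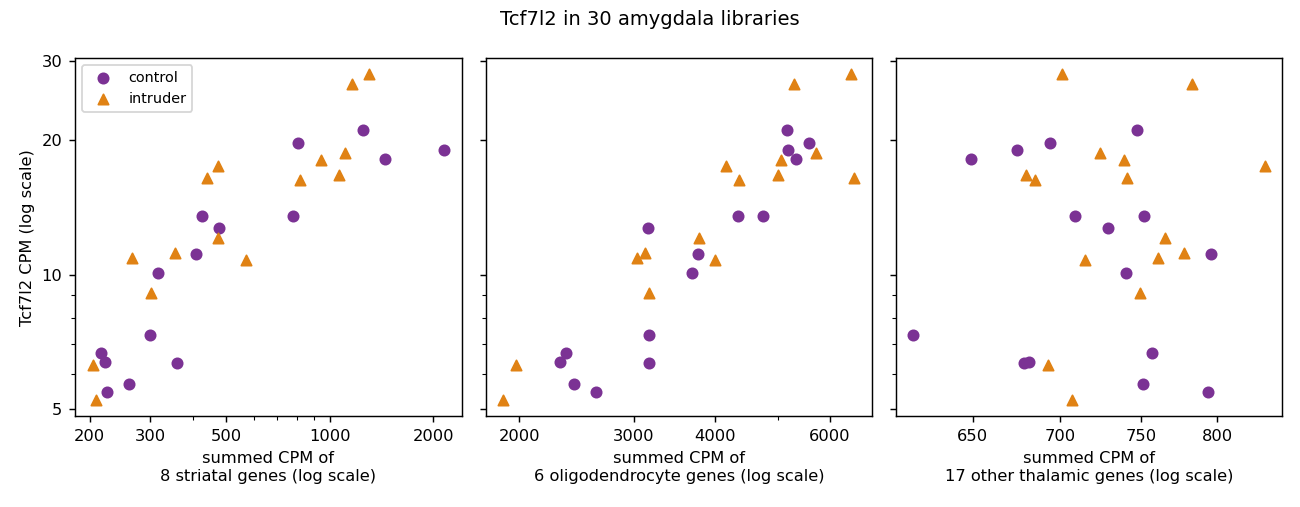
Tcf7l2 CPM in 30 amygdala libraries against the summed CPM of striatal, oligodendrocyte and other thalamic genes (all axes log; circles controls, triangles intruder libraries). Tcf7l2 climbs with the striatal sum from 204 to 2150 CPM and the oligodendrocyte sum from 1890 to 6540 CPM, while the thalamic sum stays between 618 and 833 CPM.

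The genes whose pattern was most like that of each of the 5 were ranked by Pearson r of log2(CPM + 1) centred on the group. In amygdala (n = 30) Syt2 (0.98), a synaptotagmin, and Slc10a4 (0.98), a vesicular transporter known from cholinergic neurons, were among the 3 for Tcf7l2. For Lef1 they were Gata2 (0.95), She (0.94) and Flt1 (0.93). Zfp536 (0.86) was among the 3 for Rora, and the highest were Btg3 (0.78) for Ramp3 and Ptpdc1 (0.75) for Prkcd. Syt2 ran from 9.36 to 120 CPM over these libraries and Tcf7l2 from 5.25 to 28 CPM.

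In hypothalamus the ranking depended on the libraries that stood apart. With all 28, Prkcd was most like Abhd12b (0.98), Plekhg1 (0.97) and Synpo2 (0.96), and Ramp3 most like Synpo2 (0.98), Abhd12b (0.97) and Tnnt1 (0.96). Abhd12b had a median of 0.113 CPM and a highest value of 11.8 CPM. In the 23 others Prkcd was most like Inpp5j (0.86), while Npy5r, a neuropeptide Y receptor, came after 2 identifiers without a symbol (0.82 and 0.70) for Ramp3, at 0.69. Lef1 went from Wnt9b (0.94), a Wnt ligand, to Gsx1 (0.97) and Agrp (0.95), the latter a peptide of the arcuate nucleus, and the median r of Lef1 with the hypothalamus list was 0.72 in the 23. There Lef1 had r = -0.58 with Prkcd and -0.42 with Tcf7l2, while Prkcd and Tcf7l2 had r = 0.55.

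In frontal cortex with all 32 libraries Tcf7l2 was most like Frem3 (0.95) and Prkcd most like Gal (0.93), the galanin gene. Gal had a highest value of 4.38 CPM and a median of 0.0876 CPM. In the 31 other libraries the highest were Smpdl3b (0.84) for Tcf7l2 and Smox (0.73) for Prkcd. Rora was most like Kif5c (0.92), a neuronal kinesin, with and without that library, and Ramp3 reached 0.84 with Nfix in the 31. These values are descriptions over libraries that share the dissection and the index series.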

How the data were processed

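Poly(A) RNA libraries (90) were made with a strand-specific kit and sequenced as single-end reads, per the labels' protocols. The deposited values are raw counts of reads per Ensembl gene; the submitters' processing notes name CASAVA 1.8.2, TopHat2 2.0.8, HTSeq 0.6.1, edgeR 3.2.4 and R 3.0.0 and the build NCBIM37. The strand setting of the counting is not given in the sources used here, so Rora and Ramp3, which overlap opposite-strand genes (Gm15511 and Gm11978) in the Gencode M21 annotation, may share reads with them. The 5 entries of unassigned reads were left out. Symbols were matched for 32919 of 37991 identifiers.

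Each region was fitted with edgeR 4.0.16 (R 4.3.3): TMM scaling, filterByExpr, 1 coefficient for each of 6 groups, trended dispersion, quasi-likelihood F test, Benjamini-Hochberg adjustment over all genes tested (17277 in amygdala, 17091 in frontal cortex, 17676 in hypothalamus), called at an adjusted p below 0.05. The fit across regions used 18 groups and 18337 genes. SE is the log2 fold change divided by the square root of F. CPM use TMM-scaled library sizes. Correlations were tested with 100000 permutations, adjusted over 15. The scripts were tested on simulated data. Tests are two-sided. If RNA was pooled, as the design text says, p-values measure the spread between pools.

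The 5 genes and the gene lists were chosen with earlier results of these data known. Named genes are the 5, members of the lists, and the 3 genes with the highest r to each. Some genes that this rule or a list holds are not reported here. Equal replicate numbers did not pair libraries: over 41 pairs the correlation of deviations ran from -0.5 to 0.56, and 12 were above 0.1. No libraries of a group agreed within sampling noise (lowest chi-square per degree of freedom 4.2). Alternatives were RLE scaling, DESeq2 1.42.0, no filter on low counts, the 2 groups compared alone, replicate number, index or animal as a block, each library left out, and the 6 libraries that stood apart left out, the last chosen after seeing the data.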

Additional observations from a re-analysis of the deposited data

Results flagged for a closer look

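Within groups of 4 to 10 libraries, 102 sets of values were screened for a highest or lowest value whose gap to the rest exceeds the 95% critical value, and 15 values had one, in 6 libraries. Such a screen marks some groups by chance. The genes were chosen because single hypothalamic and cortical libraries stood apart in them, so the gaps of the 5 genes in those libraries restate that choice and are listed as a description, not as a test. The levels are in CPM, and for the other thalamic genes the score is the mean of log2(CPM + 1). In hypothalamus 120 min control 6, all 5 genes were the highest of 5, with Tcf7l2 at 82.9, Lef1 at 12.9, Prkcd at 127, Rora at 120 and Ramp3 at 24.3 CPM, and the score of the other thalamic genes, at 5.45, was too. In hypothalamus 120 min intruder 3, Prkcd at 97.4 and Ramp3 at 19.8 CPM were highest of 5. In hypothalamus 60 min intruder 1, Prkcd at 26.2 and Ramp3 at 7.17 CPM were. In frontal cortex 120 min intruder 1, Tcf7l2 at 24.6 CPM, Prkcd at 42.6 CPM and the score, at 4.39, were highest of 6. Prkcd also lay apart as the highest of 5 in amygdala 30 min intruder 1 (26.2 CPM) and as the lowest of 5 in frontal cortex 30 min control 4 (10.5 CPM).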

How the results depend on the processing

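Of 3675 values recomputed under alternatives for 231 results, 3579 stayed on the same side of the threshold or, for counts, within 1.5 times. Among these no called value changed direction, but 176 values that did not pass changed sign, as for Prkcd in hypothalamus at 120 min, intruder against control (-1.07 to 1.08). Between hypothalamus and amygdala, leaving out the 6 libraries reversed Prkcd (-0.24) and Rora (-0.13). They were left out for high values of these genes, which lowers the hypothalamic mean by construction, so this is no test of the regional difference. Calls of the 5 genes between regions are not read, and over all alternative settings Prkcd ran from -0.24 to 0.49 between hypothalamus and amygdala. In frontal cortex, the number called between 120 and 60 min controls was 2, was 1 without the filter on low counts and 0 to 2 with 1 library left out (0 without 60 min control 5). For intruder libraries, 60 against 30 min gave 2 and 1 to 2 with 1 library left out. Between 120 and 30 min it was 1, 2 without the 6 libraries and 1 to 2 with 1 left out (2 without 120 min intruder 1). Between 120 and 60 min it was 1, but 0 without the filter, 0 with the replicate block, 0 with the index as a block and 0 without the 6 libraries, and 0 to 1 with 1 left out. In amygdala, intruder libraries at 120 against 30 min gave 1, but 0 without the filter, 0 with the replicate block, 0 with the index block and 0 to 1 with 1 left out. With DESeq2, 1 gene passed in 2 pairs of times of amygdala where edgeR called 0: Prkcd among intruder libraries at 60 against 30 min (0 to 1 with 1 left out, 1 without 60 min intruder 4) and Lef1 among controls at 120 against 30 min. The replicate block changed no other call of the 5 genes within regions. The index block could not be fitted for most cortical comparisons. Lef1 and Ramp3, with as few as 75 and 80 reads in a library, carry the most counting error.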
